A study of Mus musculus with 62 samples.

Results

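The comparison described here sets euploid forebrain from embryos at E17.5 (E, embryonic day; n = 8) against euploid adult hippocampus at 6 weeks (n = 16, of which 8 were labelled male and 8 female). Its members were all columns labelled euploid in the embryonic count table and all columns labelled wild type in the adult count table, which made 24 of the 62 libraries of the series. The study as a whole asked how an extra copy of Brwd1, a bromodomain gene, acts in the trisomic brain of Ts65Dn mice, and the euploid animals are the controls of that design. Bulk polyA RNA was sequenced from each sample.

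All 24 animals were euploid mice of a mixed DBA/2J x B6EiC3Sn/J background, with no transgene, deletion or drug treatment. The embryos carried no sex label. Stage and brain region differ together in this comparison, and the stages were counted in separate tables, so that age, region and library series cannot be told apart. For this reason the differences below were tested against a minimum size: the 2-fold test asks whether a gene differs by more than 2-fold and the 4-fold test whether it differs by more than 4-fold. In bulk tissue, fewer cells of a type and less RNA per cell cannot be told apart either.

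At the end of gestation, the mouse forebrain still holds dividing progenitors in its ventricular zones, and most of its neurons are newborn cells that migrate and extend axons. Synapse formation, the branching of dendrites, astrocyte maturation and myelination take place mainly after birth. The hippocampus, a fold of the medial forebrain needed for learning and memory, is built of densely packed excitatory pyramidal and granule neurons with scattered inhibitory interneurons, and its dentate gyrus keeps a small pool of progenitors in the adult.

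The depth was 14863136 to 62618142 counts per library in the embryos, 38467031 to 94895309 in the adult males and 39763601 to 137059172 in the adult females. Every level below is in log2 CPM, the log2 of the counts scaled to a fixed library total, and every difference is adult hippocampus minus E17.5 forebrain on that scale, given ± its standard error (n = 16 and 8) where one is printed. The first principal component separated the stages and held 71% of the variance. Among the 223 genes named here, a library was the lowest or highest of its group by more than Dixon's critical ratio 29 times for adult female B125, 14 times for embryo 4, 13 times for embryo 3 and 8 times for adult female B85, and at most 4 times for any other library. Adult female B85 had male levels of Xist (-0.33 against 7.94 to 10.03 in the other females) and Ddx3y (5.72). Adult female B125 was low for long transcripts: genes with over 10 kb of exon lay at a median of -0.61 log2 relative to the other females, and genes under 3 kb at 0.41, while in the other 23 libraries these medians, each against its own group, lay between -0.14 and 0.16 and between -0.11 and 0.08. In embryo 3, collagen transcripts were the highest of the embryos (Col1a1 at 9.3 against 5.12 to 6.36 in the other embryos).

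Large differences were common. Of 17234 genes tested, 3051 (17.7%) were higher in adult hippocampus in the 2-fold test and 2478 (14.4%) were lower, at an adjusted p under 0.1. In the 4-fold test, 1157 genes (6.71%) were higher and 827 (4.8%) were lower. The median difference over all genes was -0.02 on the log2 scale, and the ranges of the 2 stages did not overlap for 7928 genes (46%). Scaling to library size alone, without the TMM composition factors, moved the median to -0.32 and the 2-fold counts to 2313 higher and 3643 lower, so the balance of directions depends on the scaling. The embryo labels carry either of 2 numbers whose meaning is not given, with 4 embryos each, and within each set of 4 the 2-fold counts were 2884 and 3085 higher and 2419 and 2388 lower. Counts of list members below are to be read against the shares above.

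**Figure D1:**
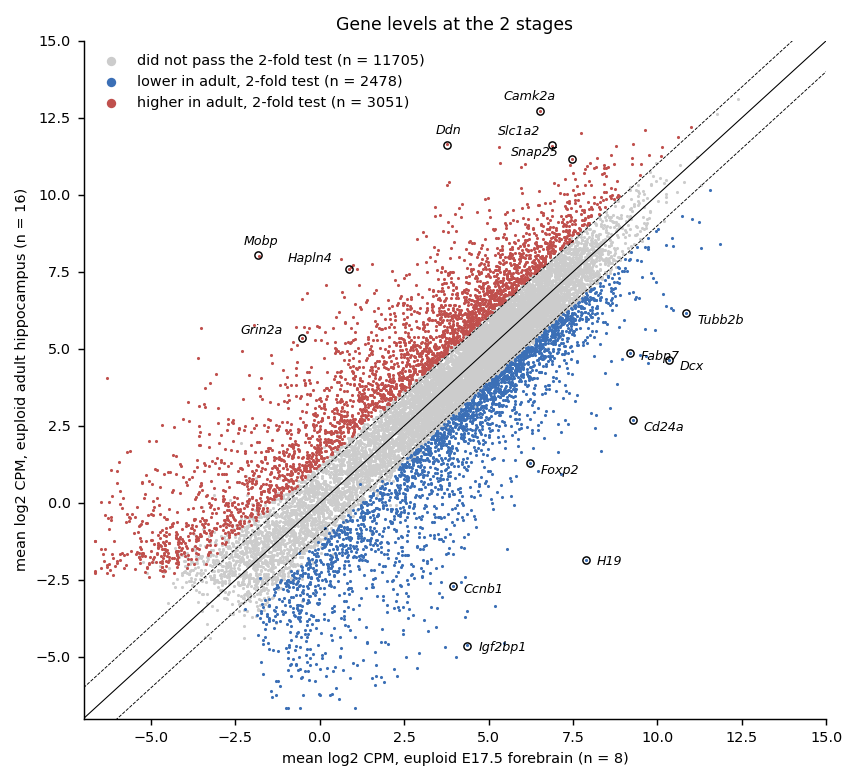
Mean level of each of the 17234 tested genes in E17.5 forebrain (x axis, log2 CPM, n = 8) and adult hippocampus (y axis, log2 CPM, n = 16), with genes past the 2-fold test in red (3051, higher in adult) and blue (2478, lower in adult) and the dashed lines at a 2-fold difference. Myelin and postsynaptic genes such as Mobp, Ddn and Camk2a lie far above the diagonal, while H19, Igf2bp1, Ccnb1 and Dcx lie far below it.

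Among well-expressed protein-coding genes, the largest differences in favour of adult hippocampus were those of Mobp, a myelin protein, Zfp831, a zinc finger gene, Ddn (dendrin), a protein of dendrites and postsynaptic sites, Fa2h, which makes the hydroxylated lipids of myelin, Gpr37l1, an astrocyte receptor, Ankrd33b, an ankyrin-repeat gene, Adra1d, a noradrenaline receptor, Rgs14, a signalling regulator of CA2 neurons, Itpka, a kinase of dendritic spines, and Fam107a. Mobp ranged from -2.93 to -0.98 (median -1.77) in the embryos and from 7.11 to 8.62 (median 8.07) in the adults, a difference of 9.8 ± 0.26 or 893-fold. Ddn went from 2.44 to 4.5 (median 4.13) to the range 11.2 to 11.94, with a difference of 7.72 ± 0.28. For both genes the lowest adult lay far above the highest embryo. The other 8 genes differed by 6.62 (Fam107a) to 8.81 (Zfp831) on the log2 scale, that is 98.3- to 449-fold, with the values between them at 6.71 for Itpka, 6.9 for Rgs14, 6.94 for Adra1d, 7.03 for Ankrd33b, 7.11 for Gpr37l1 and 7.17 for Fa2h.

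Hba-a1, an alpha-globin gene (-9.94 ± 0.23), led the 10 largest differences in the opposite direction. Hba-a1 and Hba-a2 are near-identical copies, so the split of reads between them is uncertain. Isl1, a factor of striatal and other ventral neurons, was next (-6.93 ± 0.65). It ranged from 4.29 to 5.67 in the embryos and from -6.65, the value of a library with 0 counts, to 2.23 in the adults. Most of the remaining 8 are known from young neurons and growing axons. They were Gpc2, a glypican of growing axons (-6.62), Cd24a, a surface protein of newborn neurons (-6.56), Igfbpl1 (-6.4), Draxin, a secreted axon guidance factor (-6.21), B3gnt5, a glycolipid enzyme (-5.81), St8sia2, which makes the polysialic acid of embryonic NCAM (-5.7), Dcx, a microtubule protein of migrating neurons (-5.51), and Trim67 (-5.49). Dcx was measured at 10.09 to 10.54 in the embryos and at 3.98 to 7.04 in the adults, where the highest value was that of female B85 and the other 15 adults lay at or below 5.04. Trim67 and St8sia2 had the most even values of the 10, with standard errors of 0.09 and 0.1.

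**Figure D2:**
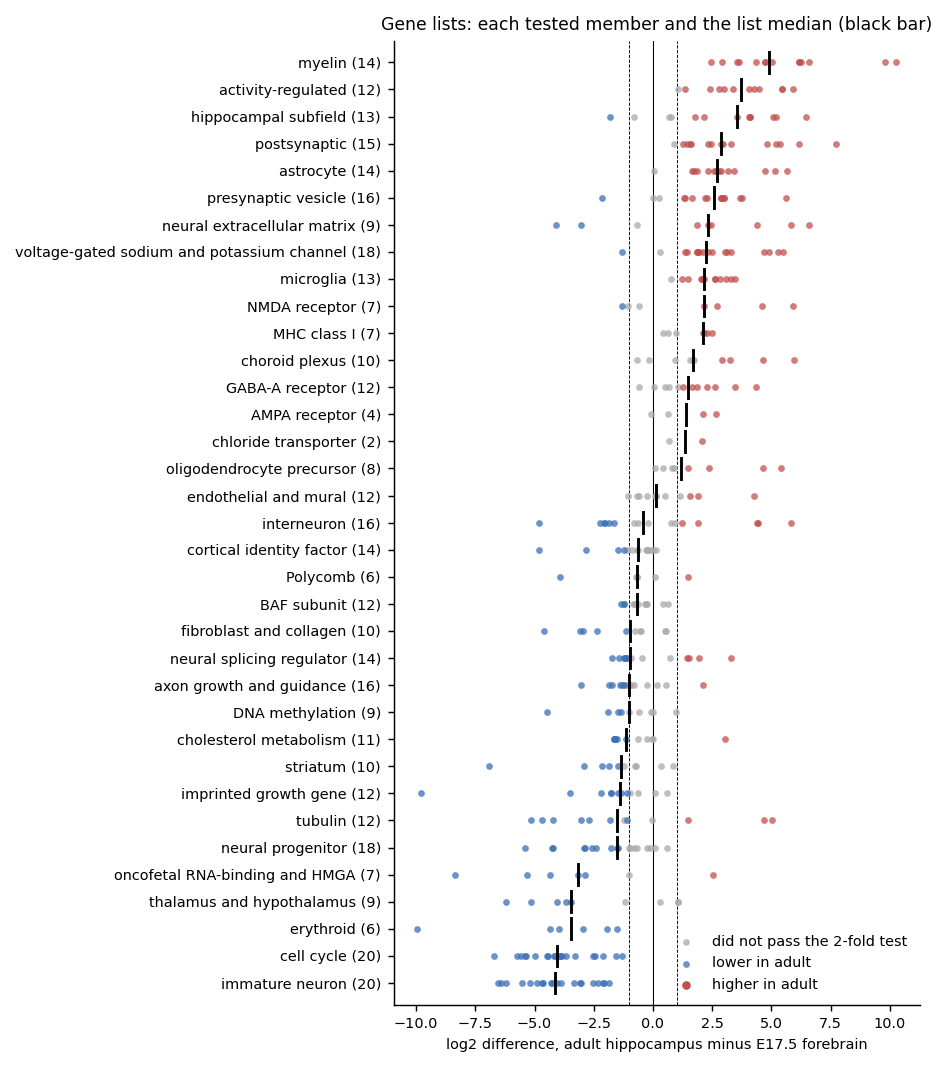
Log2 difference (adult hippocampus minus E17.5 forebrain, x axis) of every tested member of 35 gene lists (rows, with the number of members tested), coloured by the 2-fold test, with the list median as a black bar and dashed lines at a 2-fold difference. The medians run from -4.15 for immature neuron genes and -4.03 for cell cycle genes to 4.88 for myelin genes.

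Every tested gene of the cell cycle list was lower in adult hippocampus. All 20 of 20 passed the 2-fold test, 17 passed the 4-fold test, the ranges did not overlap for any of the 20, and the median difference was -4.03. Ccnb1, the mitotic cyclin B1, was expressed from 3.35 to 4.85 (median 3.87) in the embryos and from -3.91 to -1.89 (median -2.69) in the adults, a difference of -6.72 ± 0.2 or 106-fold (adjusted p = 1.08e-17 in the 4-fold test). Ube2c, which tags mitotic cyclins for destruction, differed by -5.73 ± 0.15, and Bub1, a checkpoint kinase of the kinetochore, by -5.58 ± 0.22. Summed over the list, the level was 510 to 928 CPM in the embryos and 69 to 95 CPM in the adults.

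Cell cycle genes that peak in mitosis are known to carry CCAAT boxes (CCAAT), bound by NF-Y, and the cell cycle homology region (CHR, TTTGAA), bound by the DREAM complex. Because this list moved as a block, its promoters are shown. In RefSeq promoter windows (250 bases before to 50 after the start of transcription, GRCm38.p6, either strand), 17 of the 20 genes had a window, of which 16 held a CCAAT box and 9 held a CHR, all 9 together with a CCAAT box. Over 12214 protein-coding genes tested, the shares were 38.2% for the CCAAT box, 11.9% for the CHR and 4.94% for both. Among genes past the 4-fold test the CHR was found in 23.1% of the 502 windows of genes lower in adult hippocampus and in 9.84% of the 803 windows of genes that were higher. The windows of Ccnb1 and Bub1, named above, held 2 CCAAT boxes each and no CHR. A match is a description of the letters and not evidence of binding.

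The 3 windows with both motifs and the largest differences were those of Ube2c (6 CCAAT boxes, of which 1 pair overlaps, and 1 CHR), Top2a (6 and 2) and Cdk1 (3 and 2). They are printed 5′ to 3′ on the strand of the gene, with both motifs in capitals on whichever strand they lie, so that ATTGG and TTCAAA are the complements of CCAAT and TTTGAA. The Ube2c window is chr2:164769679-164769978 (plus strand), the Top2a window chr11:99024140-99024439 (minus strand) and the Cdk1 window chr10:69352863-69353162 (minus strand).
Ube2c: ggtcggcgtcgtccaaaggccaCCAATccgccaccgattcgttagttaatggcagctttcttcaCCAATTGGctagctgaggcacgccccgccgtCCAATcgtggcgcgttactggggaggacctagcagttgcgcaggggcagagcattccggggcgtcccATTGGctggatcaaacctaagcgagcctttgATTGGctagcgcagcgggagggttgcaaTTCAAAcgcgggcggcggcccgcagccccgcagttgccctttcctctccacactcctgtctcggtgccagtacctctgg
Top2a: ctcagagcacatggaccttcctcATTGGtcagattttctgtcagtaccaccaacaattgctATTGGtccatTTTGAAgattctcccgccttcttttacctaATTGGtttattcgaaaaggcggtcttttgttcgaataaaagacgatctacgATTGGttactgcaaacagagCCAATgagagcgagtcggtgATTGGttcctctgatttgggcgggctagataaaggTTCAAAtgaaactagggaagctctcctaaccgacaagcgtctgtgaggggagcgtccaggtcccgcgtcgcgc
Cdk1: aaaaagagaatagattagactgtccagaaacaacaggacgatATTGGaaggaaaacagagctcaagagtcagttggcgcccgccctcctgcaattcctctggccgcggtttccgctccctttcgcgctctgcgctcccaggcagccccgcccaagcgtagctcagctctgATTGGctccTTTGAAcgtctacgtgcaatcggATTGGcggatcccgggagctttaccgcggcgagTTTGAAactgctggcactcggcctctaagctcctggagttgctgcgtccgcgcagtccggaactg

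Genes of neural progenitors were lower in adult hippocampus or did not pass. Of 18 tested, 10 were lower in the 2-fold test, 8 did not pass and none was higher, with a median of -1.51. Neurog2, a proneural factor of dorsal progenitors, was at 5.14 to 6.63 in the embryos and -1.12 to 0.94 in the adults (-5.42 ± 0.21). Fabp7, the lipid carrier of radial glia, differed by -4.26 ± 0.16. Eomes, the factor of intermediate progenitors, differed by -4.22 ± 0.49; its adult values lay between -1.16 and 2, apart from female B85 at 4.76, and without that library the difference was -4.94.

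Immature neuron genes were the list with the lowest median (-4.15). All 20 of 20 were lower in the 2-fold test, 17 in the 4-fold test, and none overlapped between stages. The summed level was 20100 to 23000 CPM in the embryos and 1790 to 2940 CPM in the adults. Cd24a, the lowest member, was measured from 8.65 to 9.78 (median 9.25) in embryonic forebrain and from 1.84 to 3.24 (median 2.88) in adult hippocampus, which is 94.4-fold lower. Axon guidance genes were more mixed: 6 of 16 were lower, led by the repellent Sema3a (-3.05 ± 0.2), the ephrin receptor Epha3 (-1.85 ± 0.19) and the ephrin Efna5 (-1.72 ± 0.2), 9 did not pass, and the repellent Slit1 was higher in adult hippocampus (2.1 ± 0.12).

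Tubulins, the subunits of microtubules, differed in both directions by isotype. Of 12 tested, 7 were lower in adult hippocampus and 3 were higher. Tubb2b, a tubulin of migrating neurons, ranged from 10.47 to 11.06 (median 10.88) in the embryos and from 5.96 to 6.43 (median 6.19) in the adults (-4.69 ± 0.07), Tubb3, the classical neuronal tubulin, differed by -3.02 ± 0.08, and Tubb5 by -2.72 ± 0.06. The alpha-tubulins Tuba1a (-4.23), Tuba1b (-1.81) and Tuba1c (-5.13) were also lower, although these copies are so alike that reads may be split among them. On the other side, Tuba4a was higher by 5.02 ± 0.13, Tuba8 by 4.68 ± 0.32 and Tubb4a, a tubulin of neurons and oligodendrocytes, by 1.47 ± 0.08. Per kilobase of exon, Tubb4a made up 6.15% ± 1.03 (SD, n = 8) of beta-tubulin transcripts in the embryos and 50.2% ± 2.48 (SD, n = 16) in the adults, while Tubb2b went from 25.8% ± 2.29 to 2.99% ± 0.255 and Tubb3 from 43.1% ± 0.681 to 15.8% ± 1.57. Tubb2a lay close to the threshold (-1.11 ± 0.07, adjusted p = 0.0633); the call was lost without embryo 1 (-1.06, adjusted p = 0.215), embryo 6 (-1.08, 0.135), female B17 (-1.09, 0.102) or female B65 (-1.09, 0.102). Tubb4b (-0.03) and Tubb6 (-1.22, adjusted p = 0.129) did not pass, and Tubb6 passed without embryo 5, 6 or 8, male B139 or B95, or female B85 (-1.26 to -1.3, adjusted p = 0.0448 to 0.0989).

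The oncofetal list holds RNA-binding and chromatin proteins of fetal and stem cells, and most of its members were lower in adult hippocampus. Of 7 tested genes of this list, 5 were lower, all of them in the 4-fold test too. Igf2bp1, which binds and stabilises growth-related mRNAs, was at 4.07 to 4.74 in the embryos and at -6.65 (the value of a library with 0 counts) to -2.32 in the adults, a difference of -8.34 ± 0.32. Igf2bp2 differed by -5.33 ± 0.16 and Hmga2, a chromatin protein of fetal progenitors, by -4.34 ± 0.32, whereas Hmga1 (-1.03) did not pass. Trim71, a stem cell ubiquitin ligase and target of let-7, went the other way: it was barely detected in the embryos (-3.82 to -0.86) and higher in the adults (-0.74 to 1.47), by 2.55 ± 0.3 (adjusted p = 0.0757 in the 4-fold test).

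Imprinted genes that control fetal growth were lower for 8 of 12 members and higher for none. H19, the maternally expressed RNA beside Igf2, showed the widest gap of the list, from 7.24 to 9.47 (median 7.69) in the embryos against from -3.26 to -0.47 (median -1.86) in the adults (-9.81 ± 0.3, 897-fold). Cdkn1c, a cyclin-dependent kinase inhibitor, differed by -3.49 ± 0.32 and Zim1 by -2.21 ± 0.2. Igf2 itself did not pass (-0.63 ± 0.42): adult libraries spread from 5.61 to 9.06, and this gene is also made by choroid plexus and meninges, whose markers varied between the adult libraries and whose part was not tested. The other 3 that did not pass were Meg3 (0.09), Ndn (-0.98) and Peg3 (0.59).

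Most synaptic genes were higher in adult hippocampus. On the presynaptic side 13 of 16 were higher, 10 of them in the 4-fold test, with a median of 2.57. Snap25, a fusion protein of synaptic vesicles, ranged from 7.17 to 7.83 (median 7.43) in the embryos and from 10.81 to 11.37 (median 11.19) in the adults (3.67 ± 0.08), and Sv2b, a vesicle glycoprotein, differed by 3.78 ± 0.1. The vesicular glutamate transporters went in opposite directions. Slc17a7 (VGLUT1), used by cortical and hippocampal excitatory neurons, was higher by 5.63 ± 0.16, and Slc17a6 (VGLUT2), used in the thalamus and by young neurons, was lower (-2.15 ± 0.24). Per kilobase, Slc17a7 was 29.1% ± 8.74 (SD) of the pair in the embryos and 98.9% ± 0.565 in the adults. Slc32a1, the vesicular GABA transporter (0.26), and Stx1a (0.01) did not pass.

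Postsynaptic genes were higher for 14 of 15 members, with a median of 2.86. Camk2a, the kinase subunit at the centre of long-term potentiation, reached 12.25 to 13.06 in the adults against 5.8 to 6.86 in the embryos (6.18 ± 0.15, 72.6-fold). Homer1, a scaffold protein, was the member that did not pass (0.87 ± 0.1).

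NMDA receptors, the glutamate-gated channels that admit calcium, pair GluN1 with GluN2 subunits that are exchanged as circuits mature. In adult hippocampus 4 of 7 subunit genes were higher and 1 was lower. Grin2a (chromosome 16, 9567901-9996083 in GRCm38.p6) was close to absent in the embryos (-1.51 to 0.03) and was at 2.15 to 6.11 in the adults, a difference of 5.91 ± 0.37 or 60.2-fold. Grin2c differed by 4.61 ± 0.13 and Grin1, the obligate subunit, by 2.71 ± 0.13. Grin2b, the juvenile subunit, was higher in adult hippocampus as well (2.16 ± 0.32), with from 4.2 to 5.07 (median 4.56) in the embryos and from 3.18 to 7.53 (median 6.74) in the adults. Its ranges overlapped only through female B125 at 3.18; the next adult was at 5.89, and without B125 the difference was 2.25. The balance of both subunits differed without overlap: the log2 ratio of Grin2a to Grin2b counts lay between -5.84 and -4.17 in the embryos and between -1.57 and -0.93 in the adults. Grin2d, a subunit of interneurons and young neurons, was lower (-1.3 ± 0.15, adjusted p = 0.0313), a call that was lost without embryo 6 (-1.17, adjusted p = 0.142). Grin3a (-0.59) and Grin3b (-1.07) did not pass.

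AMPA receptors carry fast excitation. Gria1 (2.66 ± 0.08) and Gria3 (2.11 ± 0.08) were higher in adult hippocampus, while Gria2, the subunit that limits calcium entry (0.65), and Gria4 (-0.09) did not pass. Gria1 was at 7.44 to 7.75 in the embryos and 9.85 to 10.58 in the adults, and its share of AMPA receptor transcripts per kilobase was 36.9% ± 4.08 (SD) and 68.3% ± 2.32. Gria4 had 13.6% ± 2.86 of these transcripts in the embryos and 3.83% ± 1.05 in the adults.

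**Figure D3:**
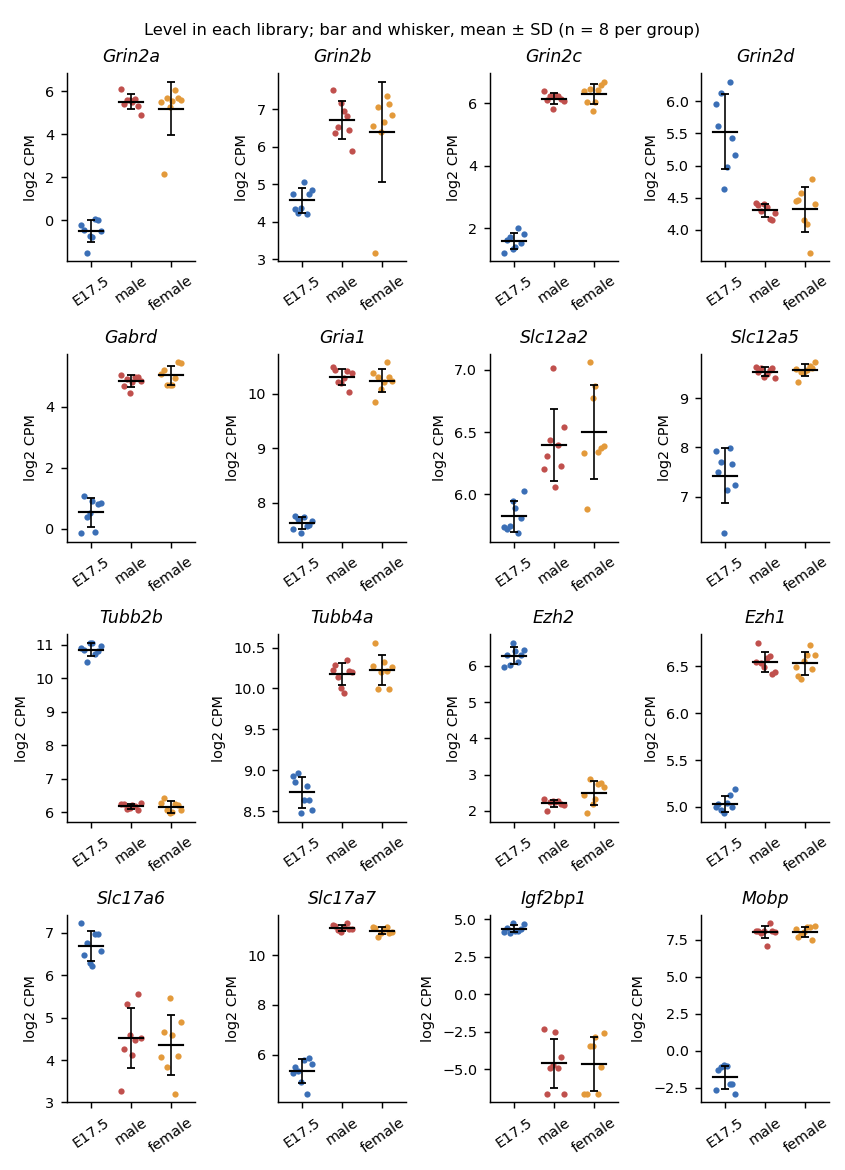
Level (log2 CPM, y axis) of 16 genes in each of the 24 libraries, by group (x axis: E17.5, adult male, adult female), with the group mean and SD (n = 8 each). Grin2a, Grin2c, Gabrd, Ezh1, Slc17a7 and Mobp separate the stages upwards and Tubb2b, Ezh2 and Igf2bp1 downwards, and the lone low female for Grin2a and Grin2b is B125.

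GABA-A receptors, the chloride channels of fast inhibition, were higher for 7 of 12 subunits tested and lower for none. Gabrd, the delta subunit of extrasynaptic receptors on dentate granule cells, showed the largest difference of the family (4.35 ± 0.16), from -0.14 to 1.08 in the embryos to 4.45 to 5.45 in the adults. Gabra4 (2.61), Gabrb1 (2.3), Gabra5 (1.86), Gabra2 (1.64) and Gabrb2 (1.29) were higher too. Gabra3, the alpha subunit of the immature cortex, did not pass (-0.57), and neither did the gamma subunits Gabrg3 (0.52) and Gabrg1 (0.06).

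The direction of the GABA response depends on chloride transporters. Slc12a5 (KCC2), which extrudes chloride from mature neurons, was measured from 6.26 to 7.98 (median 7.58) in the embryos and from 9.32 to 9.73 (median 9.57) in the adults, a difference of 2.05 ± 0.14. Slc12a2 (NKCC1), which brings chloride in, did not pass (0.66 ± 0.12); choroid plexus, whose markers varied between the adult libraries, also makes it, and its part was not tested. The ratio of Slc12a5 to Slc12a2 counts had a median of 1.82 (0.31 to 2.29) on the log2 scale in the embryos and 3.24 (2.42 to 3.44) in the adults, without overlap.

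Voltage-gated sodium and potassium channels were higher for 16 of 18 members. Among these were the sodium channel beta subunit Scn4b (5.49 ± 0.3) and the potassium channel subunit Kcnab2 (4.88 ± 0.11), and Scn3b (0.31) did not pass. Scn3a, the fetal sodium channel, was lower (-1.31 ± 0.13, adjusted p = 0.0117), a call lost with DESeq2, with adult females only and with embryos 1 to 4 only (-1.22 to -1.29, adjusted p = 0.103 to 0.125). Its share of the sodium channel alpha transcripts per kilobase was 39.5% ± 1.92 (SD) in the embryos and 6.41% ± 1.3 in the adults, and that of Scn8a, the channel of nodes and mature axons, was 19.2% ± 1.12 and 43.9% ± 2.62.

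**Figure D4:**
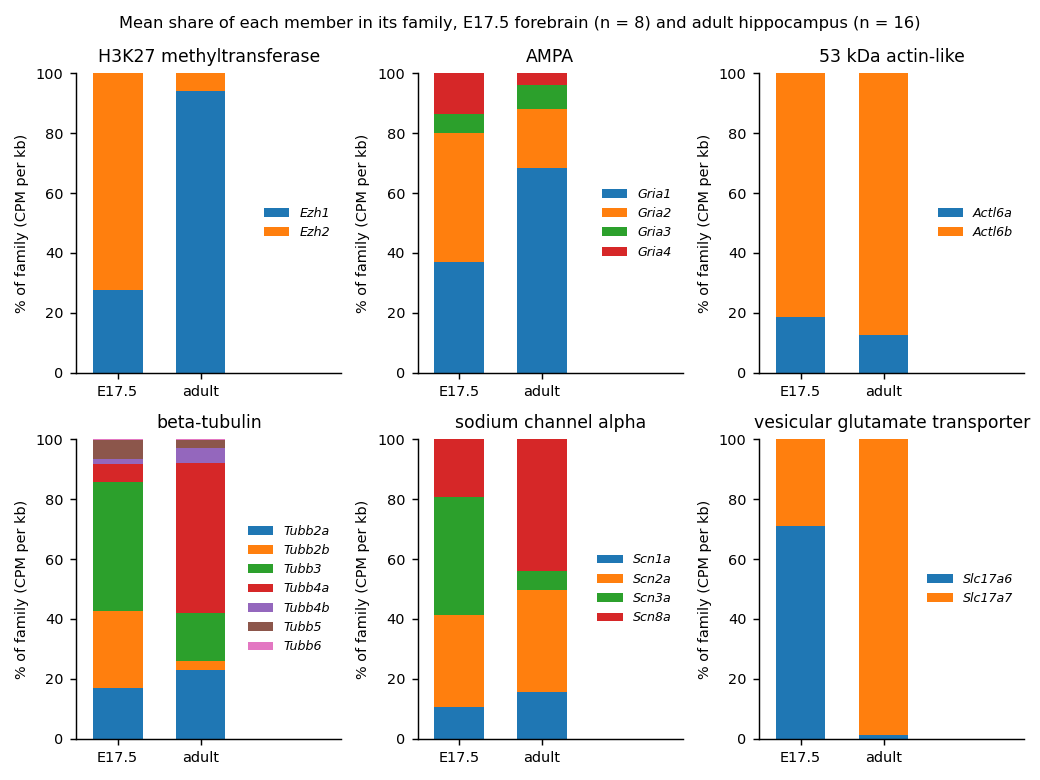
Mean share (y axis, % of the summed CPM per kilobase of exon) of each member within 6 gene families in E17.5 forebrain (n = 8) and adult hippocampus (n = 16); the SDs are in the text for the members named there. Ezh2, Tubb3, Tubb2b, Scn3a and Slc17a6 take large shares in the embryos, and Ezh1, Gria1, Tubb4a, Scn8a and Slc17a7 in the adults.

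Activity-regulated genes, which neurons transcribe within minutes of firing, were higher for 11 of 12 members, with a median of 3.7. Egr4 went from -1.99 to 0.77 in the embryos to 5.09 to 6.15 in the adults (5.91 ± 0.21), Arc, a regulator of AMPA receptor traffic, differed by 5.44 ± 0.25, and Fosb by 5.43 ± 0.25. Npas4 did not pass (1.07 ± 0.36). How each brain was handled before freezing is not given in the sources used here, and its part in these levels was not tested. The core of the cAMP response element (TGACG), known from promoters of this class, was present in 6 of the 8 windows of these genes and in 29.6% of the 12214 windows overall. The Egr4 window, chr6:85513540-85513839 (minus strand), is shown because Egr4 differed most; its 2 matches, both on the opposite strand as CGTCA, are in capitals.
Egr4: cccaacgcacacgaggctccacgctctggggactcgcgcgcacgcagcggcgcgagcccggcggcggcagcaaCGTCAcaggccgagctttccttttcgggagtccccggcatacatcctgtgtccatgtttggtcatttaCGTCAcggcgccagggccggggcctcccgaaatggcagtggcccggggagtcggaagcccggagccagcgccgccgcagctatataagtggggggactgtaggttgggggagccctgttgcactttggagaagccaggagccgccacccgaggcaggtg

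The Polycomb methyltransferases Ezh2 and Ezh1 went in opposite directions. Ezh2, which places the repressive H3K27 methyl mark in dividing cells, was at 5.96 to 6.64 in the embryos and 1.93 to 2.88 in the adults (-3.92 ± 0.09, 15.1-fold), and Ezh1, its counterpart in resting cells, was higher in the adults (1.5 ± 0.05). The share of Ezh1 in the pair, per kilobase, was 27.7% ± 3.31 (SD) and 94.1% ± 1.24. The other 4 Polycomb members did not pass, at -0.71 for Suz12, -0.69 for Jarid2, -0.67 for Eed and 0.09 for Rbbp7.

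In the DNA methylation list, 4 of 9 were lower, led by Uhrf1, which recruits the maintenance methyltransferase to replicating DNA (-4.46 ± 0.12), the de novo methyltransferase Dnmt3b (-1.9 ± 0.17) and the demethylating enzyme Tet1 (-1.48 ± 0.13). Dnmt3a (-1.03), Mbd2 (0.96), Tet3 (-0.6) and Tet2 (-0.08) did not pass. Subunits of the BAF chromatin remodelling complex, with which the study is concerned, showed small differences. Of 12 tested, 3 were lower in the 2-fold test and none was higher or passed the 4-fold test. Actl6a (BAF53a), the actin-like subunit of progenitors, was at 4.67 to 5.56 in the embryos and 3.57 to 3.91 in the adults (-1.35 ± 0.07). Smarcc1 (BAF155) differed by -1.23 ± 0.05 and Dpf1 (BAF45b), a subunit of neurons, by -1.21 ± 0.07. Actl6b (BAF53b), the neuronal counterpart of Actl6a, did not pass (-0.65 ± 0.06), but all adults lay below all embryos. Since Actl6a differed by more, the mean share of Actl6b in the pair, per kilobase, was higher in the adults. It was 81.3% ± 3 (SD) in the embryos and 87.5% ± 1.33 in the adults, with overlapping ranges (75.4 to 86 and 84.5 to 89.1). The remaining 8 members, Smarca4 (-0.84), Ss18l1 (-0.77), Phf10 (-0.74), Smarcc2 (-0.32), Ss18 (-0.3), Dpf2 (-0.27), Smarca2 (0.42) and Dpf3 (0.63), did not pass. With library sizes only, Smarca4 (-1.15, adjusted p = 0.000552) and Ss18l1 (-1.08, adjusted p = 0.063) passed as well, and against adult females only the call of Dpf1 was lost (-1.11, adjusted p = 0.105). Brwd1 ranged from 7.16 to 7.37 (median 7.34) in the embryos and from 6.37 to 7.22 (median 6.9) in the adults (-0.37 ± 0.07), and Dyrk1a, a kinase gene of the same chromosomal segment, from 6.43 to 6.7 (median 6.57) and from 6.24 to 6.69 (median 6.59) (0.01 ± 0.05). Neither passed, and both sets of ranges overlapped.

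Regulators of neural splicing moved in both directions, with 4 higher and 6 lower of 14. Mbnl2 (3.31 ± 0.09), Rbfox3, whose protein is the neuronal marker NeuN (1.94 ± 0.07), and Mbnl1 (1.53 ± 0.07) were higher, and Nova1 (-1.73 ± 0.12), Ptbp2 (-1.44 ± 0.06) and Ptbp1 (-1.22 ± 0.06), repressors of neuronal exons in the case of the Ptbp genes, were lower. Celf4 (0.7), Nova2 (-0.45), Srrm4 (-0.92) and Elavl3 (-1.04) did not pass, although Elavl3 passed without embryo 4 (-1.07, adjusted p = 0.0339).

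Most glial genes were higher in adult hippocampus, and myelin genes had the highest median of the 35 lists. All 14 of 14 myelin genes passed the 4-fold test, with a median of 4.88, and their summed level was 119 to 183 CPM in the embryos and 3480 to 7870 CPM in the adults. Opalin, a membrane protein of oligodendrocytes, had 3 counts over the 8 embryos and 15674 over the 16 adults, a ratio of 1510 after scaling with a 95% counting interval of 517 to 7330. Of 8 genes of the oligodendrocyte precursor list, 4 were higher, namely Enpp6 (5.4 ± 0.4), Bcas1 (4.66 ± 0.22) and Gpr17 (1.48), genes of newly forming oligodendrocytes, and Sox10, the lineage factor (2.38 ± 0.15). Pdgfra, the receptor that defines the precursors, did not pass (0.44 ± 0.08), and neither did Cspg4 (0.8), Olig1 (0.89) or Olig2 (0.08).

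Astrocyte genes were higher for 13 of 14 members, 10 of them in the 4-fold test. Gfap, the intermediate filament of astrocytes, ranged from 2.4 to 3.74 (median 2.79) in the embryos and from 8.19 to 9.17 (median 8.54) in the adults (5.68 ± 0.18), S100b differed by 5.17 ± 0.26 and Slc1a2 (GLT-1), which clears glutamate from the synapse, by 4.72 ± 0.14. Aldh1l1, which radial glia also express, did not pass (0.06 ± 0.11). Microglial genes were higher for 12 of 13, with Siglech (3.47 ± 0.14), the lysosomal protease Ctss (3.28 ± 0.12) and Tmem119 (3.08 ± 0.22) in front, and Aif1 (0.75) did not pass. Antigen presentation genes of the MHC class I list were higher for 4 of 7, among them the immunoproteasome subunits Psmb8 (2.48 ± 0.22) and Psmb9 (2.28 ± 0.23) and the heavy chain H2-K1 (2.14 ± 0.21), while H2-D1 (0.99), Tap1 (0.65) and Tapbp (0.43) did not pass.

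Genes of the neural extracellular matrix differed in both directions. Of 9 genes, 6 were higher, led by the link proteins of perineuronal nets and nodes, Hapln4 (6.6 ± 0.21), Hapln2 (5.84 ± 0.18) and Hapln1 (4.41 ± 0.17). Tenascin C (Tnc), a matrix protein of the progenitor zones, was lower (-4.1 ± 0.08), as was versican (Vcan, -3.03 ± 0.1), and Ncan (-0.67) did not pass. Hapln4 was at -0.13 to 1.56 in the embryos and 7.16 to 8.07 in the adults, while Tnc was at 7.34 to 7.96 and 3.1 to 3.87. The ranges of the stages were far apart for both.

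In the cholesterol metabolism list, 6 of 11 members were lower in adult hippocampus, among them the synthesis enzymes Hmgcs1 (-1.66 ± 0.06) and Fdft1 (-1.6 ± 0.08). Cyp46a1, the neuronal hydroxylase by which the brain disposes of cholesterol, was higher (3.03 ± 0.1), from 3.83 to 4.83 in the embryos to 7.38 to 8.03 in the adults. Dhcr7 (-0.64) and Abca1 (0.01) did not pass. Of 12 endothelial and mural genes, 3 were higher and 9 did not pass, beside 17.7% higher over all genes tested. These 3 were the barrier transporter Slco1a4 (4.25 ± 0.22), the VEGF receptor Flt1 (1.91 ± 0.1) and Acta2, the actin of smooth muscle (1.58 ± 0.4, adjusted p = 0.0712). The call for Acta2 was lost without embryo 2, 4, 5, 6, 7 or 8 or male B139 or B95, each in turn (1.44 to 1.55, adjusted p = 0.101 to 0.141), and without embryo 3, where it was highest, the difference was 2.28.

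Interneuron genes went in both directions. Pvalb (5.82 ± 0.23), the calcium-binding protein of fast-spiking cells, and the neuropeptides Vip (4.42 ± 0.38) and Cck (4.39 ± 0.12) were higher in adult hippocampus, and the lineage factors Nkx2-1 (-4.83 ± 0.29), Dlx2 (-2.24 ± 0.22) and Dlx1 (-2.07 ± 0.23) were lower. In all, 5 of 16 were higher and 6 lower. Nkx2-1 was at 4.26 to 5.94 in the embryos and -2.12 to 1.66 in the adults. Dlx1 and Dlx2 overlapped between stages through female B85 (6.06 and 5.12), and without that library the difference of Dlx2 was -2.46. Sst (0.92), Gad2 (0.78), Npy (-0.22), Calb2 (-0.64) and Reln (-0.81) did not pass.

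Marker genes of brain regions differed in both directions, and here too age and region cannot be told apart. Hippocampal subfield genes were higher in the adult tissue for 9 of 13 members, with a median of 3.54; the dentate granule cell genes Lct (6.45 ± 0.32) and Dsp (5.21 ± 0.3) and Iyd (5.05 ± 0.35) differed most, Socs2 was lower (-1.83 ± 0.11), and Pou3f1 (0.75), Bok (0.66) and Mpped1 (-0.82) did not pass. Striatal genes were lower for 5 of 10, among them Isl1, the adenosine receptor Adora2a (-2.9 ± 0.11) and the tachykinin precursor Tac1 (-2.16 ± 0.14), while Ppp1r1b (0.85), Penk (0.36), Drd1 (-0.7), Foxp1 (-0.76) and Drd2 (-1.23) did not pass; Drd2 passed without female B17 (-1.41, adjusted p = 0.01). Of 9 thalamic and hypothalamic genes tested, 5 were lower, led by Sim1 (-6.21 ± 0.69), Gbx2 (-5.15 ± 0.59) and Tcf7l2 (-4.07 ± 0.25). Sim1 was at 1.25 to 2.63 in the embryos and at -6.65 (0 counts) in most adults, with the highest adult at -0.29. Gbx2 ranged from 1.98 to 4.5 in the embryos and from -6.65 to 1.55 in the adults. The sizes of both differences thus rest on few adult counts. Prkcd (1.07), Pomc (1.04), Oxt (0.3) and Lhx9 (-1.19) did not pass. Lhx9 passed without embryo 2, 5 or 6 (-1.27 to -1.3, adjusted p = 0.0479 to 0.0835), and Oxt turned to -1.08 without female B173. Among the cortical identity factors, Foxp2, a gene of deep cortical layers and the striatum (-4.82 ± 0.21), and Cux1 (-1.47 ± 0.08) were lower, and 10 of 14 did not pass.

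Markers of tissue that lies against the brain varied between libraries of the same group. Choroid plexus genes, of which 4 of 10 passed as higher in the adults, summed to 88.9 to 1280 CPM in the embryos and 193 to 10600 CPM in the adults, with Ttr, the defining secretory product, between 4.09 and 10.17 in the embryos and between 4.43 and 12.6 in the adults. Kl (5.95 ± 0.67), Enpp2 (4.65 ± 0.71) and Kcnj13 (3.24 ± 0.96), the 3 largest differences, carried larger standard errors than the other named genes that passed without a library at 0 counts, and the part of choroid plexus in them was not tested. The call of Kcnj13 was lost with embryos 1 to 4 only (3.22, adjusted p = 0.154) and with embryos 5 to 8 only (3.27, adjusted p = 0.141). For Kl and Enpp2, even the lowest adults (Kl 4.47, Enpp2 7.1) lay above the highest embryos (Kl 1, Enpp2 5.76). Kcnj13 overlapped between stages, from -2.55 to 1.61 in the embryos and from -2.12 to 5.61 in the adults. Genes of fibroblasts and collagen were lower in the adults for 5 of 10, with Col3a1 at -4.58 ± 0.31, Col1a1 at -3.09 ± 0.42 and Postn at -2.94 ± 0.43; without embryo 3, where they were highest, the Col1a1 difference was -1.89 and that of Postn -2.23, and both still passed the 2-fold test. Lum (-0.75), Col5a1 (-0.55), Col4a2 (-0.52), Dcn (0.49) and Sparc (0.56) did not pass. All 6 of 6 erythroid genes tested were lower in the adults, with Hba-a2 at -4.36 ± 0.51, and the list summed to a median of 111 CPM in the embryos (lowest 87.2) and 9.15 CPM in the adults (highest 21.3). The part of retained blood in these values was not tested.

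**Figure D5:**
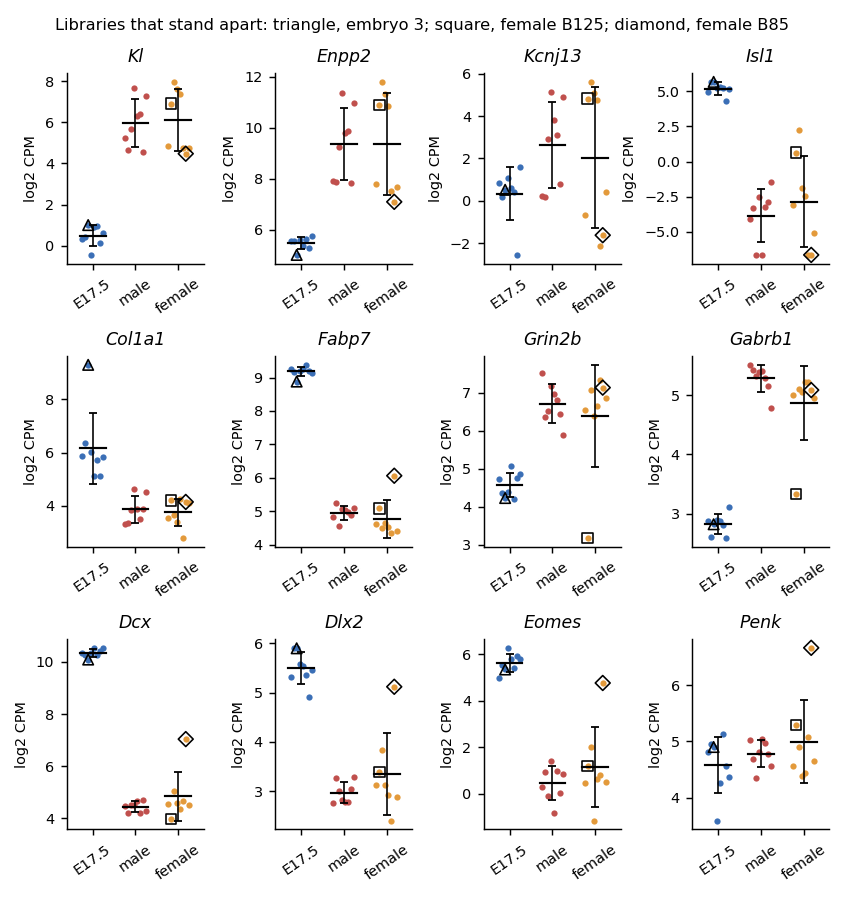
Level (log2 CPM, y axis) of 12 genes in each library, by group (x axis), with the mean and SD (n = 8 each); triangles mark embryo 3, squares adult female B125 and diamonds adult female B85. Kl, Enpp2 and Kcnj13 vary widely among adults of both sexes, Col1a1 is highest and Fabp7 lowest of the embryos in embryo 3, Grin2b and Gabrb1 are lowest in B125, and Dcx, Dlx2, Eomes and Penk are highest among the adults in B85.

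The same contrast in the trisomic mice used other animals. Ts65Dn mice carry an extra copy of many genes, most but not all of them homologous to genes of human chromosome 21. Of these triplicated genes, 93 lay at a median of 0.52 to 0.63 above euploid in every library labelled Ts65Dn except male B145 (0.02). In the fit over both genotypes, 2946 of 18002 genes (16.4%) were higher and 2782 (15.5%) lower in Ts65Dn adult hippocampus (n = 15) than in Ts65Dn E17.5 forebrain (n = 7) in the 2-fold test. Of the 3051 genes that were higher in the euploid contrast, 2715 were also called higher in Ts65Dn, as were 2245 of the 2478 lower genes in their direction, and 0 were called in opposite directions. The library labelled Ts65Dn male B145 changed little here: without it the counts were 2954 and 2782. A test of the difference between the genotypes (stage by genotype) called 10 of 18002 genes (0.0555%). Leaving out each of the 46 libraries in turn moved this count between 2 and 128; Gja1 and Gjb6 were called in all 46 fits, while Neurog2 (adjusted p = 0.119) and Oplah (0.119) were lost without Ts65Dn embryo 2, and Npas1 was called in 27 of the fits. Gja1 and Gjb6, the connexins of astrocytes, had the smallest adjusted p: Gja1 was higher in adult hippocampus by 1.73 in euploid and 1.02 in Ts65Dn mice (interaction -0.71 ± 0.12 SE, adjusted p = 0.00356), and Gjb6 by 2.59 and 1.72 (-0.87 ± 0.16 SE, adjusted p = 0.0282). The adult levels of Gja1 were close (7.96 ± 0.18 and 7.85 ± 0.13, mean ± SD), and its embryonic levels did not overlap (5.78 to 6.6 in euploid, 6.69 to 7 in Ts65Dn). Oplah, an enzyme of glutathione turnover, gave -0.38 ± 0.07 (adjusted p = 0.0347). In the other direction, the stage difference of Neurog2 was -5.41 in euploid and -3.48 in Ts65Dn mice (interaction 1.93 ± 0.38, adjusted p = 0.0362), and Npas1, a factor of interneurons, gave 0.48 ± 0.1 (adjusted p = 0.076). Add3 (-0.36) had a smaller stage difference in Ts65Dn, and Krt5 (6.43) and Olfm5 (9.25) were near 0 counts in most libraries. These last calls rested on euploid embryo 3, without which the values were 0.79 for Krt5 (adjusted p = 0.853) and 4.41 for Olfm5 (adjusted p = 0.508), and they were made in 16 and 18 of the 46 fits.

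Male and female adults were close beside differences of this size. Between euploid adults labelled female and male, 765 of 17234 genes (4.44%) passed at an adjusted p under 0.1, with a median size of 0.352 log2 units. Of these 765 genes, 170 were also called in the 2-fold test of stage, which called 17.7% of all genes higher and 14.4% lower. Besides Xist, the noncoding RNA that silences the second X chromosome, the genes higher in females were led by Amy1, an amylase (0.61 ± 0.09 SE, adjusted p = 0.00324), and Trmu, a mitochondrial tRNA enzyme (0.41 ± 0.06, adjusted p = 0.00324). Those lower in females were led by Rab3c, a vesicle GTPase (-0.52 ± 0.11, adjusted p = 0.0193), Rfk, which makes flavin cofactors (-0.29 ± 0.06, adjusted p = 0.0214), and Rnf11, a ubiquitin ligase (-0.27 ± 0.05, adjusted p = 0.00873). The count of 765 rested on single libraries: it was 339 without B85, which had a male pattern of Xist and Ddx3y, 277 without female B17, 299 without female B65, 265 without male B110 or without male B84, 417 without male B139, 1172 without female B173 and 1788 without female B125. B85 lay outside the male range, on the female side, for Amy1 (4.68, males 3.52 to 4.04) and Rab3c (8.59, males 8.86 to 9.56). The same held for Rfk (4.76, males 5.07 to 5.27) and Rnf11 (7.71, males 7.83 to 8.09). These genes were picked from the contrast that counted B85 as a female, so its own values helped to pick them. They cannot show to which sex B85 belongs. The part of sex itself in these differences between labelled groups was not tested.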

How the data were processed

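Forebrain of E17.5 embryos and hippocampus of 6-week-old mice were sequenced (single-read, polyA, TruSeq v2). The authors deposited raw counts per gene, by Entrez identifier, in a table for each stage. The submitters' processing notes name HISAT2 2.1.0, featureCounts 2.0.1 and DESeq2 2.11.40.6 and the mm10 build. They also list an earlier mouse build, and the paper's methods name a later HISAT2 version and an Ensembl annotation. Tables were joined by identifier (27179 genes, of which 1886 had no symbol; those held at most 1.84% of a library's counts), and 0 columns of other samples were used.

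Counts were analysed in R 4.3.3 with edgeR 4.0.16: filterByExpr with a minimum count of 10, TMM factors, a robust quasi-likelihood fit with 3 groups (E17.5, adult male, adult female), and glmTreat of the adult mean minus E17.5 against a log2 difference of 1 (2-fold test) or 2 (4-fold test), with Benjamini-Hochberg adjustment and a threshold of 0.1. Adjusted p-values quoted are from the 2-fold test unless stated. Levels are log2 CPM with a prior count of 0.5. DESeq2 1.42.0 and other scalings, filters and omitted libraries were tried. The 2-fold test was run on simulated counts with 200 genes changed. It called 82.4% of genes simulated at a log2 difference of -1.5, 78.8% at 1.5 and 0 of 16943 unchanged genes. Far fewer genes differed there than in the real data, all had the same dispersion and no library was made to stand apart. The simulation therefore cannot judge the scaling or the effect of single libraries. Counting intervals (95%) and floors of 3 counts cover counting error only. Named genes were the 10 largest differences in each direction among protein-coding genes past the 4-fold test with a mean of at least 5 log2 CPM at the higher stage, all NMDA, AMPA and GABA-A receptor subunits, chloride transporters, tubulins and BAF subunits, up to 3 genes past the 2-fold test per direction in each other list with its members that did not pass where they were 5 or fewer, the 3 smallest p in each direction for the sex and genotype tests, and Brwd1, Dyrk1a, Xist and Ddx3y. Gpr17, Ttr, Add3 and Olfm5 and the genes with 0 counts at a stage were added after their values were seen. A few genes of these lists are not reported here. Members and lists were chosen with earlier results of these data known. The animals are separate samples, and p-values measure the spread between these libraries. Family shares used GENCODE exon lengths, and promoters came from RefSeq (GRCm38.p6).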

Additional observations from a re-analysis of the deposited data

Results flagged for a closer look

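Values below are log2 CPM of genes named above. In each group of 8 libraries the highest and the lowest value were compared with the nearest of the others by Dixon's ratio, whose critical value about 1 in 20 groups exceed by chance, and 86 of the 669 groups tested exceeded it.

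Adult female B125 stood apart most often. It was the lowest female for Abca1 (5), Arc (6.52), Brwd1 (6.37), Epha3 (2.51), Gabra2 (6.33), Gabrb1 (3.33), Gabrb2 (7.35), Gabrg3 (0.34), Gja1 (7.43), Gria2 (8.9), Gria3 (7.25), Grin2a (2.15), Grin2b (3.18), Homer1 (5.98), Mbnl2 (7.23), Peg3 (6.04), Scn3a (4.68), Slc1a2 (10.65), Ss18l1 (5.9), Suz12 (4.88), Tet1 (2.84), Tet2 (4.05), Tet3 (5.43), Vcan (3.89), Zfp831 (4.71) and Zim1 (-0.02), and the highest for Aldh1l1 (6.02), Cyp46a1 (8.03) and Tuba4a (9.32). The part of transcript length in these values, whose medians by exon length are given above, was not tested gene by gene. Without B125 the stage differences were 6.00 for Grin2a, 2.25 for Grin2b and 2.37 for Gabrb1.

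Adult female B85 was the highest female for Cux1 (5.83), Dcx (7.04), Ddx3y (5.72), Fabp7 (6.06), Penk (6.66), Pomc (5.29) and Tnc (3.87), and had the lowest Xist (-0.33). Dcx (newborn neurons), Fabp7 (progenitors), Penk (striatal list) and Pomc (hypothalamic list) were thus high in a library whose sex markers did not match its label. Other members of the striatal and hypothalamic lists did not follow Penk and Pomc. Drd2 (0.89) and Ppp1r1b (5.7) were the lowest of the females, Isl1 and Sim1 had 0 counts (-6.65), and Adora2a (1.59) was among the higher females. The part of tissue sampling in these values was not tested.

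Embryo 3 was the highest embryo for Acta2 (4.32), Col1a1 (9.3), Col3a1 (8.28), Col5a1 (6.13), H19 (9.47), Krt5 (3.59), Mbnl2 (4.98), Postn (6.6) and Tapbp (4.82). It was the lowest for B3gnt5 (5.23), Fabp7 (8.88), Igf2bp2 (4.35) and Zfp831 (-6.65). Embryo 4 was the lowest for Adra1d (-2.78), Camk2a (5.8), Celf4 (8.07), Cyp46a1 (3.83), Dnmt3a (7.09), Elavl3 (9.31), Gabra3 (6.03), Gabra5 (5.28), Grin3a (3.82), Nova2 (7.44), Slc1a2 (6.23) and Smarca4 (8.51), and the highest for Igfbpl1 (9.39) and Pou3f1 (6.68). The part of the tissue taken in these 2 embryos was not tested.

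The other values past this ratio came from a few genes in other libraries. Adult male B139 had the lowest Aif1 (1.42) and Rbfox3 (8.48) of its group. Adult male B139 had the highest H2-D1 (5.17) of its group. Adult male B122 had the highest Ankrd33b (6.89) of its group. Adult male B110 had the lowest Drd1 (1.76) of its group. Adult male B79 had the lowest Enpp6 (1.54), Mobp (7.11) and Trim71 (-0.16) of its group. Embryo 7 had the lowest Gabrg3 (0.93), Kcnj13 (-2.55), Oxt (-4.32) and Slco1a4 (-1.78) of its group. Adult female B173 had the highest Gbx2 (1.55) and Tcf7l2 (4.05) of its group. Adult female B173 had the lowest Hmga2 (-6.65) and Trmu (3.53) of its group. Adult male B100 had the highest Gria2 (10.15) of its group. Embryo 2 had the highest Opalin (-3.9) of its group. Embryo 6 had the highest Pdgfra (6.03) of its group. Adult male B80 had the lowest Ptbp2 (6.49) of its group. Adult male B80 had the highest Tcf7l2 (3.88) of its group. Adult male B95 had the lowest Slc1a2 (11.43) of its group.

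The stage difference differed between Ts65Dn and euploid mice, by a test of the interaction in edgeR, for 10 genes, among them Gja1 (-0.71), Gjb6 (-0.87), Oplah (-0.38), Neurog2 (1.93), Add3 (-0.36), Npas1 (0.48), Krt5 (6.43) and Olfm5 (9.25), given as the Ts65Dn minus the euploid difference on the log2 scale. Krt5 and Olfm5 rested on euploid embryo 3, without which they were at 0.79 (adjusted p = 0.853) and 4.41 (adjusted p = 0.508). Ts65Dn male B88 had sex markers against its label and the library labelled Ts65Dn male B145 had triplicated genes at a median of 0.02 above euploid, against 0.52 to 0.63 in the other Ts65Dn libraries. Without the libraries whose sex markers did not match, 63 genes were called, and without B145 there were 12.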

How the results depend on the processing

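The counts of genes in the 2-fold and 4-fold tests stayed within 1.5 times of those reported under the alternatives tried, except that a filter of 10 counts in every library left 756 genes higher and 442 lower in the 4-fold test, a filter that removes genes absent from a stage. Leaving out each euploid library in turn gave 3013 to 3138 higher and 2439 to 2585 lower in the 2-fold test. The median over all genes moved to -0.32 with library sizes only, and stayed within 0.1 of 0 under the others. No paired analysis was possible because the embryos and the adults were different animals.

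The sex contrast (765 genes) and the stage by genotype interaction (10 genes) depended on the processing: the former gave 3489 genes with 3 RUVr factors, 329 at FDR 0.05, 1308 with DESeq2, 339 without the sex-mismatched libraries and 2214 without embryo 3 and B125 (added after seeing the data), and the latter 987 with 3 RUVr factors, 5 at FDR 0.05, 39 with DESeq2, 5 with no filter and 63 without the sex-mismatched libraries. Leaving out each library gave 265 to 1788 and 2 to 128. The cause was not tested.

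Signs turned in 12 of the named genes, and in these the reported difference did not pass the 2-fold test. Upper-quartile factors gave Abca1 (-0.07), Aldh1l1 (-0.02), Dyrk1a (-0.07), Gabrg1 (-0.02) and Stx1a (-0.07). Library sizes only gave Abca1 (-0.29), Aldh1l1 (-0.24), Dyrk1a (-0.3), Gabrg1 (-0.24), Meg3 (-0.22), Olig2 (-0.23), Rbbp7 (-0.22), Slc32a1 (-0.04) and Stx1a (-0.29). 3 RUVr factors gave Abca1 (-0.01), Oxt (-0.95) and Stx1a (-0.01). Protein-coding genes only gave Abca1 (-0.01), Dyrk1a (-0.02) and Stx1a (-0.02). Adult males only gave Abca1 (-0.03) and Meg3 (-0.32). Adult females only gave Dyrk1a (-0.04), Gabrg1 (-0.01), Stx1a (-0.01) and Tet2 (0.03). The 4 embryos 1 to 4 gave Stx1a (-0.04) and Tet2 (0.04). The 4 embryos 5 to 8 gave Aldh1l1 (-0.05), Dyrk1a (-0.05) and Tubb4b (0.01). B85 left out gave Abca1 (-0.03). Embryo 3 and B125 left out gave Stx1a (-0.03). DESeq2 gave Oxt (-1.09). Leaving out single libraries gave ranges of -0.03 to 0.07 for Abca1, -0.02 to 0.15 for Aldh1l1, -0.01 to 0.03 for Dyrk1a, -0.03 to 0.12 for Gabrg1, -1.08 to 0.53 for Oxt and -0.06 to 0.05 for Stx1a.

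Beside the single libraries named above, which are not repeated here, 7 named genes lost their 2-fold call under some alternative. DESeq2 lost Grin2d (-1.28, adjusted p = 0.249), Scn3a (-1.29, 0.108) and Tubb2a (-1.09, 0.64). Adult females only lost Acta2 (1.34, adjusted p = 0.247), Dpf1 (-1.11, 0.105), Grin2d (-1.26, 0.124), Scn3a (-1.23, 0.103) and Tubb2a (-1.11, 0.146). Embryos 1 to 4 lost Acta2 (0.92, adjusted p = 0.774), Kcnj13 (3.22, 0.154), Scn3a (-1.22, 0.125) and Tubb2a (-1.07, 0.249), and embryos 5 to 8 lost Kcnj13 (3.27, 0.141). Library sizes only lost Acta2 (1.27, adjusted p = 0.262) and Gabrb2 (0.98, 0.761), and upper-quartile factors lost Acta2 (1.48, 0.116). Tubb2a was also lost with RLE factors (adjusted p = 0.103) and with no filter (0.147), and both Acta2 (0.0712) and Tubb2a (0.0633) at FDR 0.05. In the other direction, 15 named genes that did not pass were called under some alternative. Depth limits genes with few counts, of which the fold changes depend on the prior count.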

Other observations

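A few genes had counts at a single stage. Nkx2-3, a homeobox gene, had 0 counts in all 16 adults and was at least 634-fold lower there, taking a floor of 3 counts over the group. Olig3, a factor of progenitors outside the telencephalon, was at least 225-fold lower, the pancreatic gene Cpa1 at least 161-fold and Fam162b at least 152-fold. In the other direction 5 genes had 0 counts in the 8 embryos, with bounds of 42.3-fold for Olfr550, 38.9-fold for Gm5535, 23.4-fold for Gm9946, 23.2-fold for Cldn14, a claudin, and 21.7-fold for Ptgs2os, which lies opposite Ptgs2 and cannot be told apart from it without strand.

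In the windows of 10 myelin promoters, 3 held a CCAAT box, 0 a CHR and 3 the core of the cAMP response element, beside 32.5%, 9.84% and 21.4% of the 803 windows of genes higher in adult hippocampus in the 4-fold test. The embryos carried no sex label, and Ddx3y was above 5 in embryos 3 and 6 and below -2 in the other 6.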
